A study of Mus musculus with 2 samples.

Results

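The expression of 6 chemokine genes was followed across the cells of mouse blood: the CC chemokines Ccl3, Ccl4, Ccl5, Ccl6 and Ccl9, and the CXC chemokine Cxcl2. They were taken by their symbols, and each matched a row of the expression matrix, so they are 6 of 32285 genes. The study compared circulating neutrophils of WT mice and of APP/PS1 mice, which carry mutant human APP and PS1 transgenes and deposit amyloid in the brain. Each genotype was 1 library made from the pooled blood of 3 female mice at 7 months of age, with no treatment in either group. Red cells were lysed and neutrophils were enriched by a negative selection kit before 3′ droplet sequencing. With 1 library per genotype there is no replicate check. No test of genotype can be made and no p-value is given, and every interval below is a 95% interval for counting error only.

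Chemokines are small secreted proteins that direct leukocytes along gradients through G protein-coupled receptors. Ccl3 and Ccl5 act on Ccr1, among other receptors. Ccl3, Ccl4 and Ccl5 are made by activated myeloid cells, basophils, NK cells and T cells, and cytotoxic lymphocytes hold Ccl5 ready for release. Ccl6 and Ccl9 are rodent CC chemokines made mainly by myeloid cells and act on Ccr1. Cxcl2 acts on Cxcr2, draws neutrophils to inflamed tissue and is made by neutrophils themselves as well as by macrophages.

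The 5 CC genes lie close together on chromosome 11 of the mm10 build, within 138906 bases. Ccl5 is at chr11:83525778-83530518, Ccl9 at chr11:83572919-83578636, Ccl6 at chr11:83587882-83593087 and Ccl3 at chr11:83647844-83649355, all on the minus strand. Ccl4 is at chr11:83662584-83664683 on the plus strand. Cxcl2 lies apart at chr5:90903871-90905938 on the plus strand. The upstream sequences shown are those of Cxcl2, the member most plainly lower in APP/PS1 neutrophils, of Ccl9, whose UMIs were also fewer there, and of Ccl3, which had the widest ratio in the monocytes. They come from RefSeq on GRCm38.p6, are written 5′ to 3′ on the strand of the gene, and end at the last base before the annotated start. For Cxcl2, 28 bases that another annotation counts as transcribed were left off. Capitals mark matches, on either strand, to the NF-kB motif searched, which is 3 G, 2 bases of any kind, 3 T and 2 C.
Cxcl2, chr5:90903649-90903870, plus strand: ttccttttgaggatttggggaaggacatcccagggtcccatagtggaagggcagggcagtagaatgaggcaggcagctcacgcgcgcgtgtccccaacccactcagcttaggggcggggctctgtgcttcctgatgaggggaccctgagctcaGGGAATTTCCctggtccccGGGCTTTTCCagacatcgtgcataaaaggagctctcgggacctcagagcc
Ccl9, chr11:83578637-83578886, minus strand: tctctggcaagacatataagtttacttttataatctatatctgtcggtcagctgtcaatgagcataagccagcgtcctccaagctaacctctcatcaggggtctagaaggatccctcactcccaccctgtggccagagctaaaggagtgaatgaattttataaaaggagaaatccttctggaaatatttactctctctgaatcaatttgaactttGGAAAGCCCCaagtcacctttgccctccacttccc
Ccl3, chr11:83649379-83649628, minus strand: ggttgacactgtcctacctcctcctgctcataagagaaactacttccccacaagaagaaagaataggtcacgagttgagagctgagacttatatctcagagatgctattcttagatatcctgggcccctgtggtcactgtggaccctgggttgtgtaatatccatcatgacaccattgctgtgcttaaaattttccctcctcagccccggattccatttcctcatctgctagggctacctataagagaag

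Cxcl2 held 2 matches, GGGAATTTCC from 97 to 88 bases and GGGCTTTTCC from 78 to 69 bases before the RefSeq start. Ccl9 held 1, read as GGAAAGCCCC from 35 to 26 bases before its start, and the windows of Ccl3 and Ccl6 held none. This motif was present in 1.4% of 27025 mouse windows of this kind. The AP-1 letters TGANTCA were found in 6.87% of windows and among the members in Ccl9 alone, and TATAAA in 13% and likewise in Ccl9 alone. The C/EBP letters TTGCNNAA (9.55% of windows) and the IRF motif, which is GAAA on both sides of 2 bases of any kind (3.04%), were in none of the 4 member windows read. NF-kB was picked for the capitals after the matches of all 5 motifs had been seen. A match describes letters and does not show a site in use.

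The libraries held 17123 WT and 17645 APP/PS1 cells, of which 14564 and 15208 were kept, and 83 cell barcodes occurred in both. The label calls the cells neutrophils, but marker genes divided them into 13 named types. Neutrophil-like cells made up 38.4% of kept WT and 41.7% of kept APP/PS1 cells, with all 9 neutrophil markers detected. A further 12.7% and 20.04% formed cluster 1, with neutrophil and platelet genes side by side, which is given apart. Classical monocyte-like cells were 16.7% of WT and 11.5% of APP/PS1 cells, and nonclassical monocyte-like cells 16.0% and 9.19%. Basophil-, NK cell-, CD8 T cell- and B cell-like cells were smaller groups, and 5.01% and 4.13% of cells stayed unnamed. Levels are counts of unique molecules (UMIs) per 1000000 UMIs of the cell type in a library (CPM), and a difference is called large when its log2 ratio of APP/PS1 over WT is beyond 0.5.

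**Figure D1:**
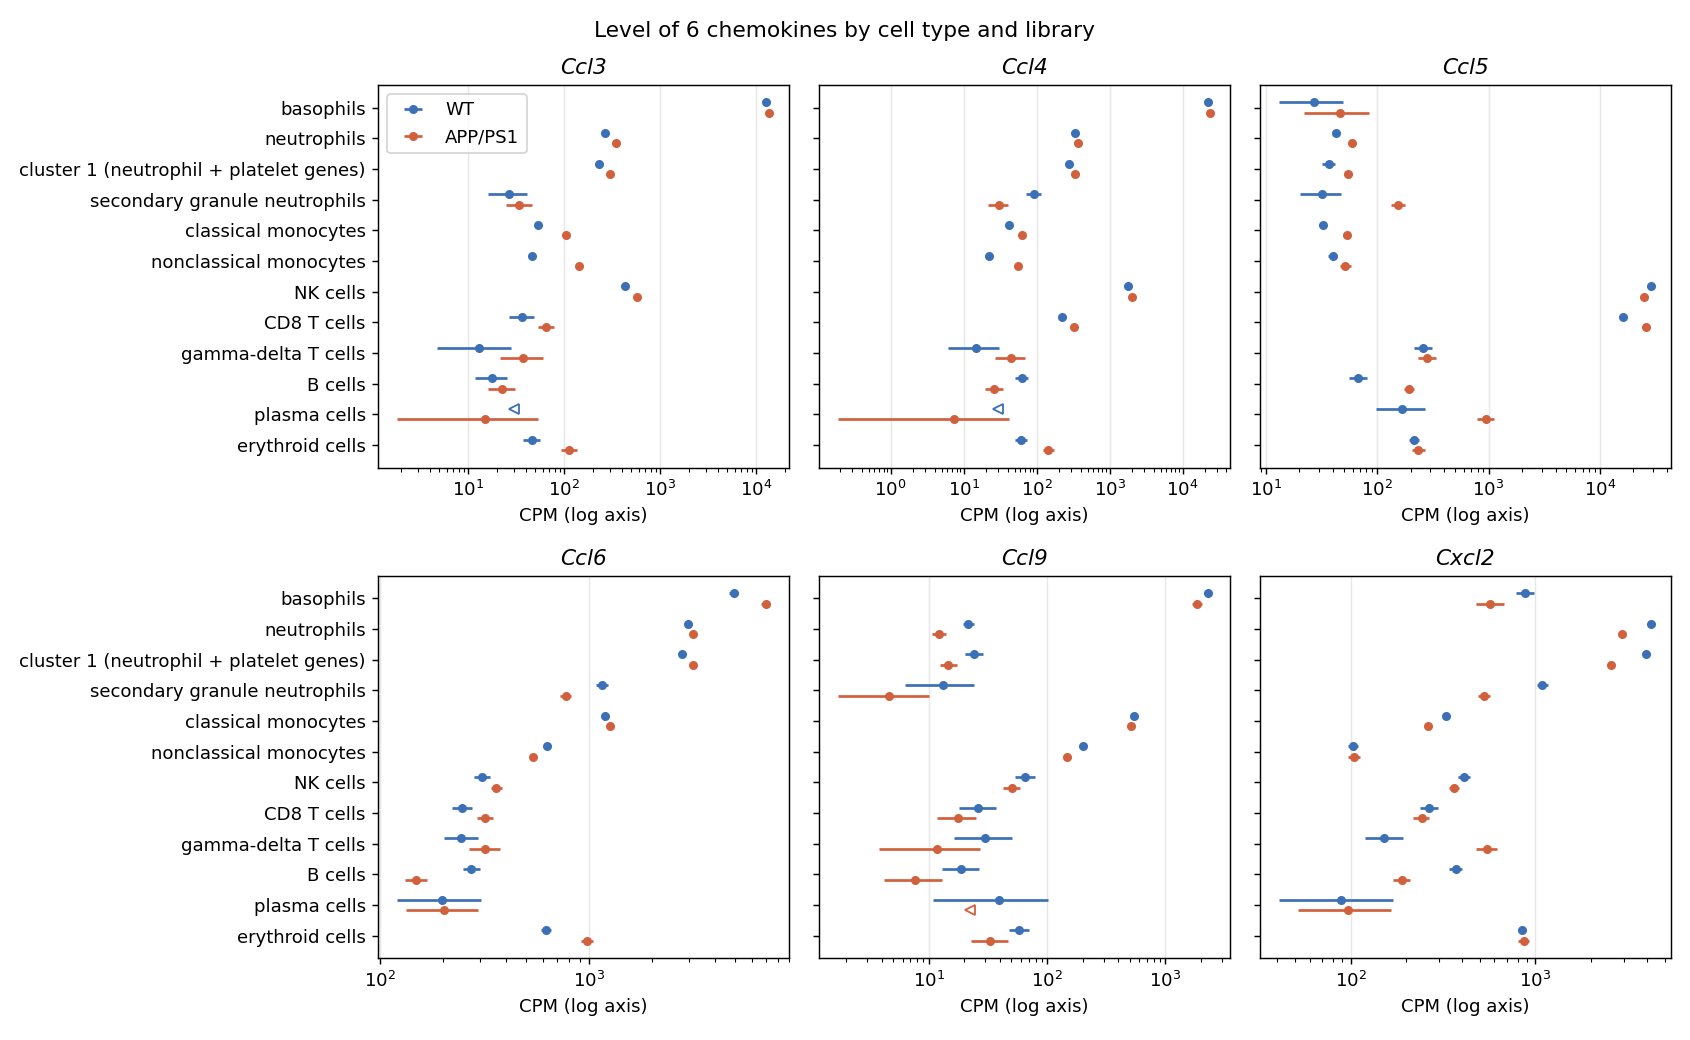
The level of each of the 6 chemokines in CPM (log axis) by cell type, with WT and APP/PS1 as separate points and bars for the 95% counting interval. Ccl3, Ccl4, Ccl6 and Ccl9 are highest in basophils, Ccl5 in NK and CD8 T cells, and Cxcl2 in neutrophils.

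Ccl3 and Ccl4 were by far highest in basophils, in both libraries. Ccl3 stood at 12617 CPM (12257 to 12984) in the 72 WT basophils and at 13671 CPM (13184 to 14171) in the 43 APP/PS1 basophils. Ccl4 stood at 22101 and 23975 CPM. The genotypes were close, with a log2 ratio of 0.12 for each gene. A WT basophil carried a median of 66 Ccl3 and 110 Ccl4 UMIs, and an APP/PS1 basophil 61 and 116. Basophils were 0.494% of WT and 0.283% of APP/PS1 cells, yet they held 35.7% and 17.2% of all Ccl3 UMIs in kept cells, and 40.1% and 21.9% of the Ccl4 UMIs. All 7 basophil markers were detected in them, summing to 6579 CPM in WT against 7440 CPM in APP/PS1.

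NK cells came next. Their Ccl3 level was 430 CPM in WT against 580 CPM in APP/PS1 (log2 ratio 0.43, 0.31 to 0.56), and their Ccl4 level was 1769 and 2035 CPM (0.20). A Ccl4 UMI was seen in 75.3% of WT and 72.1% of APP/PS1 NK cells. The level of Ccl4 in CD8 T cells was 226 CPM in WT against 325 CPM in APP/PS1 (0.52, 0.31 to 0.74). This ratio lay between 0.25 and 0.60 over the 10 settings run and beyond 0.5 in 6 of them. In the same cells Ccl3 was at 36.6 and 64.8 CPM (0.82, 0.31 to 1.36), from 46 and 107 UMIs. Per 1000 UMIs of the neutrophil gene S100a9 it was at 4.16 and 7.71, beside 2.84 and 4.47 in neutrophils. The part of free RNA from other cells in this Ccl3 was not tested.

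In neutrophils both genes were present at a lower level, carried by a minority of the cells. Ccl3 was at 266 CPM (258 to 274) in WT against 351 CPM (343 to 360) in APP/PS1, a log2 ratio of 0.40 (0.34 to 0.46). Ccl4 was at 331 and 374 CPM, a log2 ratio of 0.17 (0.12 to 0.22). Neither gene crossed 0.5. A Ccl3 UMI was found in 26.0% of 5588 WT and 28.3% of 6336 APP/PS1 neutrophils, at medians of 2503 and 2600 UMIs per cell. B cells, which should make little Ccl3, showed one in 6.93% and 6.84% of cells at the greater depths of 5001 and 5875 UMIs. Cells with at least 10 Ccl3 UMIs were 0.984% of WT and 2.05% of APP/PS1 neutrophils. The share with a Ccl4 UMI, 21.3% in WT and 19.4% in APP/PS1, went the other way from its CPM, so no order is read from it. The richest 1% of neutrophils held 28.6% of the WT and 31.8% of the APP/PS1 Ccl4 UMIs. Cluster 1 had much the same levels, 232 and 300 CPM of Ccl3 and 282 and 332 CPM of Ccl4.

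Among the types with over 1000 cells in each library, the widest difference of any member was that of Ccl3 in nonclassical monocytes. In nonclassical monocytes, which patrol the vessel wall, Ccl3 was at 45.7 CPM (41.8 to 49.9) in WT against 144 CPM (135 to 153) in APP/PS1. That is 3.15-fold, a log2 ratio of 1.65 (1.49 to 1.81). A UMI was present in 13.8% of 2334 WT and 29.1% of 1398 APP/PS1 cells, and in 3.90% and 10.4% after each cell was thinned to 1000 UMIs. No single cell made the difference, since the highest cell held 10 UMIs in WT and 24 in APP/PS1. In classical monocytes, the inflammatory subset, Ccl3 was at 53.2 CPM in WT against 105 CPM in APP/PS1, a log2 ratio of 0.98 (0.86 to 1.10). The thinned share of classical monocytes with a Ccl3 UMI was 4.54% in WT against 7.31% in APP/PS1. In B cells thinned alike, the same share was 1.32% and 2.93%.

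Ccl4 was higher in the APP/PS1 monocytes too, at lower levels. In nonclassical monocytes it was at 22.2 CPM in WT against 56.0 CPM in APP/PS1, a log2 ratio of 1.34 (1.10 to 1.58), and in classical monocytes at 42.0 and 62.7 CPM, 0.58 (0.44 to 0.72). The classical Ccl4 ratio lay between 0.19 and 0.99 over the settings and was under 0.5 at resolution 0.2 (0.19). The nonclassical Ccl4 ratio dropped below 0.5 in 4 of the 10 alternative settings. These 4 put at least 380 cells per library of an unnamed cluster among these monocytes. That cluster held 688 WT and 599 APP/PS1 cells, with S100a9, a neutrophil gene, at 37341 and 29547 CPM and Ccl4 at 186 and 173 CPM. The Ccl3 ratio stayed above 0.5 in both monocyte classes in every setting run, between 1.21 and 1.76 in nonclassical and between 0.80 and 1.42 in classical monocytes.

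Free RNA from other cells enters droplets, so the markers of other cell types in the monocytes were read beside these values. All 9 neutrophil markers were lower in APP/PS1 than in WT monocytes, summing to 4124 and 3363 CPM in nonclassical and 11822 and 8574 CPM in classical cells. Their sum was also lower in the APP/PS1 neutrophils themselves, at 181730 CPM in WT against 148840 CPM in APP/PS1. The monocyte sums alone therefore do not tell whether the share of neutrophil RNA in monocytes differed. Basophil markers summed to 1.29 and 0.776 CPM in nonclassical and 1.57 and 1.19 CPM in classical monocytes. NK cell markers went with Ccl3, at 13.8 and 20.02 CPM in nonclassical and 14.3 and 20.3 CPM in classical cells, and their part in the result was not tested. Per 1000 UMIs of S100a9, Ccl3 was at 2.84 in WT against 4.47 in APP/PS1 neutrophils. The same ratio was 8.96 and 23.6 in classical and 22.9 and 85.4 in nonclassical monocytes. In erythroid cells, where Ccl3 was at 46.0 CPM in WT against 112 CPM in APP/PS1, it was 2.61 and 5.05. The part of free RNA in these values was not tested.

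Of the 6 members, 2 were higher by over 0.5 and 0 were lower in nonclassical monocytes, where 3.21% of the 9316 genes tested were higher and 4.62% lower by as much. In classical monocytes 3 were higher (Ccl3, Ccl4 and Ccl5) and 0 lower, against 3.50% of 10329 genes higher and 4.02% lower. Ccl4 and Ccl5 each lost that call in 1 of the 10 settings run, and Ccl5 there came with 9.74 and 10.4 UMIs per UMI of the lymphocyte gene Nkg7, beside 8.75 and 8.0 in NK cells. In neutrophils 0 were higher and 2 lower (Ccl9 and Cxcl2), against 6.26% of 8705 genes higher and 4.89% lower. Neutrophil Ccl5, at 0.49, was beyond 0.5 in 5 of the 11 settings run there, and Cxcl2 in 10. The Ccl9 ratio is not read below as a difference in neutrophil expression. Cluster 1 had 1 higher (Ccl5) and 2 lower (Ccl9 and Cxcl2), against 5.57% and 4.59% of 7490 genes. CD8 T cells had 3 higher (Ccl3, Ccl5 and, in 6 of 10 settings, Ccl4) and 1 lower (Ccl9, from 33 and 29 UMIs, with an interval that includes 0), against 9.04% and 5.97% of 5949 genes. Basophils had Ccl6 higher and Cxcl2 lower among 5 members tested, against 8.49% and 10.5% of 1555 genes. Without percentile limits basophil Ccl6 was at 4105 and 5594 CPM, a ratio under 0.5. NK cells had none beyond 0.5 in either direction, against 6.03% and 3.84%. The median log2 ratio of all genes tested in neutrophils was 0.0548 and that of the 6 members 0.13.

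**Figure D2:**
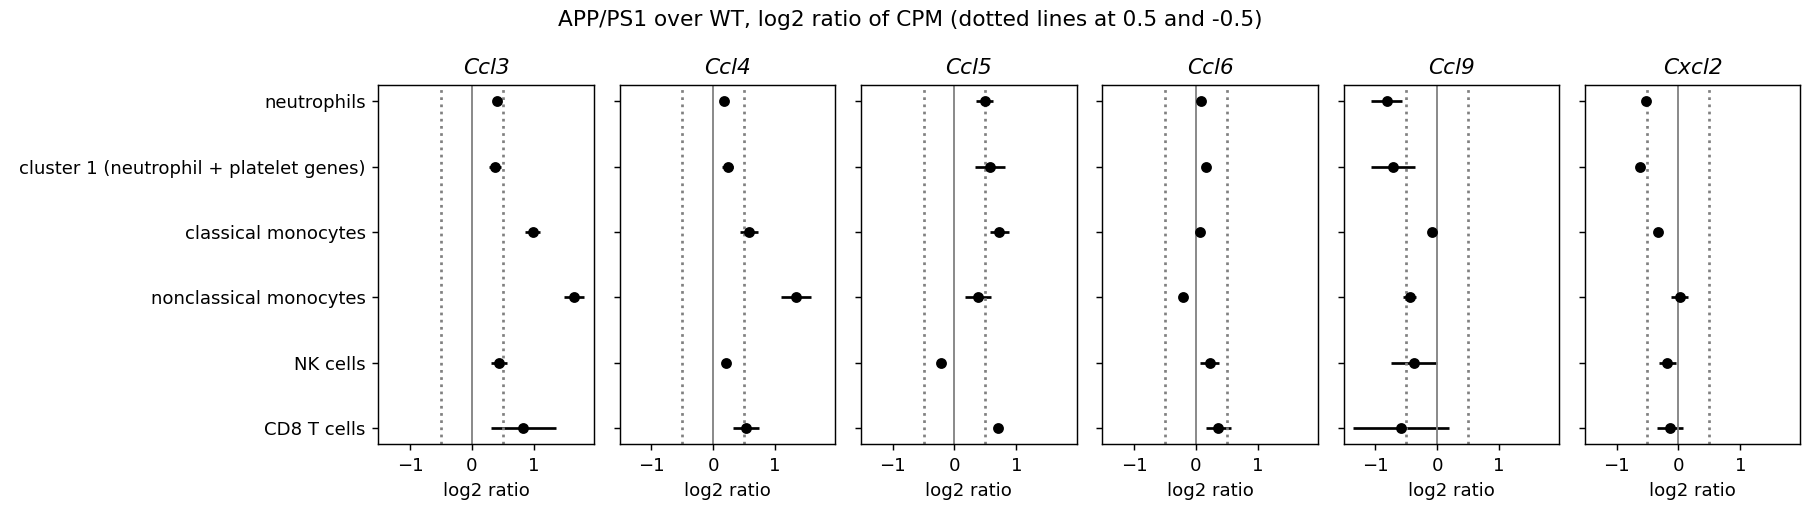
The log2 ratio of APP/PS1 over WT for each chemokine in 6 cell types, with bars for the 95% counting interval and dotted lines at 0.5 and -0.5. Ccl3 in nonclassical monocytes sits farthest to the right at 1.65, while Cxcl2 lies left of -0.5 in neutrophils and cluster 1.

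Ccl5 belonged to the cytotoxic lymphocytes. Every NK cell carried it, at a median of 98 UMIs per WT and 82.5 per APP/PS1 cell. Its NK cell level was 29051 CPM in WT against 25024 CPM in APP/PS1, a log2 ratio of -0.22 (-0.23 to -0.20). NK and CD8 T cells held 64.0% and 26.6% of all Ccl5 UMIs in WT, and 59.3% and 35.5% in APP/PS1.

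In CD8 T cells Ccl5 was higher in APP/PS1. It stood at 15993 CPM (15773 to 16216) in 296 WT cells and at 26132 CPM (25886 to 26380) in 439 APP/PS1 cells, a log2 ratio of 0.71 (0.68 to 0.73). A Ccl5 UMI was found in 78.4% of WT and 94.1% of APP/PS1 CD8 T cells, and in 72.0% and 92.3% after thinning. Genes of naive T cells were lower in the same APP/PS1 cells: the transcription factor Lef1 was at 247 and 161 CPM and the receptor Ccr7 at 218 and 97.6 CPM. Nkg7, a cytotoxic granule gene, was at 1378 and 2140 CPM.

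The CD8 T cells were therefore divided, after these values had been seen, by whether they held a UMI of Lef1 or Ccr7. Such a UMI was present in 47.0% of WT and 32.3% of APP/PS1 CD8 T cells. Among cells with one, Ccl5 was at 7153 CPM in WT (139 cells) and 17075 CPM in APP/PS1 (142 cells), a log2 ratio of 1.25 (1.21 to 1.30). Among cells without one it was at 26468 CPM (157 cells) and 32285 CPM (297 cells), a log2 ratio of 0.29 (0.26 to 0.31). The direction was thus shared by both groups of cells, and the ratio was under 0.5 in the cells without a naive gene UMI. Nkg7 was also higher in APP/PS1 in each group, at 769 and 1475 CPM with such a UMI and 2100 and 2592 CPM without. Il2rb and Cxcr3, listed with Nkg7 as memory-like genes, did not follow it in both groups. With such a UMI Il2rb was at 186 and 339 CPM and Cxcr3 at 22.0 and 37.4 CPM. Without one Il2rb was lower in APP/PS1, at 443 and 318 CPM (-0.48, -0.72 to -0.23), and Cxcr3 was at 36.5 and 36.6 CPM. Among cells with a UMI of Lef1 or Ccr7, Ccr7 was at 402 CPM in WT against 241 CPM in APP/PS1 (-0.74, -1.03 to -0.45). Lef1 was at 456 and 397 CPM there, and an Il2rb UMI was seen in 40.3% and 59.2% of these cells. Marker levels thus differed between the libraries within a group, so the division did not match cell states. The part of cell states in the Ccl5 ratios was not tested.

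**Figure D3:**
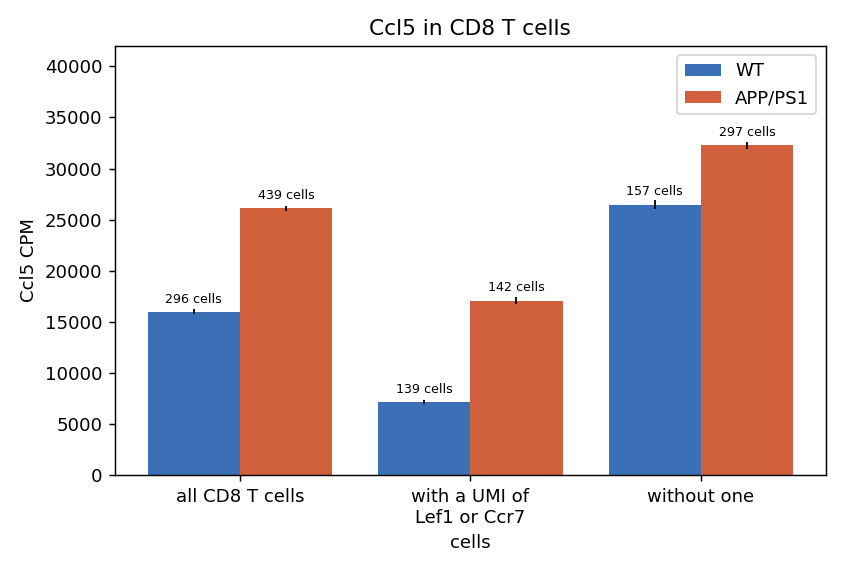
Ccl5 in CPM for all CD8 T cells and for those with and without a UMI of Lef1 or Ccr7, by library, with the number of cells above each bar and lines for the 95% counting interval. APP/PS1 is higher in each pair of bars, and cells without these UMIs are above cells with them in both libraries.

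Ccl5 UMIs in neutrophils were few. Their level was 42.4 CPM in WT against 59.4 CPM in APP/PS1 (0.49, 0.35 to 0.63), in 10.8% and 15.1% of cells and at most 6 UMIs in a cell. B cells, which should make little Ccl5, had a UMI in 14.9% and 22.2% of cells at their greater depth. After thinning, the share was 4.26% and 6.41% in neutrophils and 2.31% and 5.54% in B cells. The number of Ccl5 UMIs per Nkg7 UMI was 9.39 in WT against 8.76 in APP/PS1 neutrophils, beside 8.75 and 8.0 in NK cells. In the neutrophils and cluster 1 together, cells with no platelet and no lymphocyte marker UMI still held Ccl5 at 44.2 and 56.6 CPM. As counted the neutrophil share was below that of B cells, and at equal depth it was above, so no difference in expression is read from it and the part of free RNA was not tested. Classical monocytes had 32.4 and 53.4 CPM. The Ccl5 levels in B cells rested on few cells, the richest 1% holding 61.3% of the WT and 78.0% of the APP/PS1 UMIs.

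Ccl6 was a steady neutrophil gene with little difference between genotypes. It was at 2966 CPM in WT against 3150 CPM in APP/PS1 neutrophils (0.09, 0.07 to 0.10), with a UMI in 96.8% and 96.5% of cells. Cluster 1 was at 2774 and 3119 CPM (0.17). Basophils held more, 4904 CPM (4681 to 5136) in WT against 6985 CPM (6638 to 7345) in APP/PS1, a log2 ratio of 0.51 (0.41 to 0.61). Classical monocytes were at 1189 and 1252 CPM and nonclassical monocytes at 626 and 541 CPM. In NK and CD8 T cells, the number of Ccl6 UMIs per 1000 S100a9 UMIs was 30.6 and 28.0 in WT, and 38.6 and 37.8 in APP/PS1. In neutrophils it was 31.7 and 40.1, so the NK and CD8 T cell values were close to those of neutrophils within each library. B cells were higher, at 40.7 and 44.0, and so were gamma-delta T cells, at 51.2 and 56.1. The part of free RNA was not tested.

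Ccl9 was a gene of basophils and classical monocytes. Basophils were at 2275 CPM in WT against 1862 CPM in APP/PS1 (-0.29, -0.46 to -0.12), but without percentile limits at 1539 and 1552 CPM, so this direction was not kept. Classical monocytes were at 539 and 508 CPM (-0.08, -0.13 to -0.04), with a UMI in 92.3% and 88.6% of cells, and they held 71.7% of WT and 74.7% of APP/PS1 Ccl9 UMIs. In nonclassical monocytes the level was 200 and 147 CPM (-0.44, -0.56 to -0.33). Neutrophils had 21.5 and 12.3 CPM (-0.81, -1.06 to -0.56), with a UMI in 5.08% and 2.95% of cells. B cells had one in 7.92% and 4.56%, and after thinning the shares were 2.13% and 0.947% in neutrophils and 1.98% and 0.652% in B cells, so its ratio there is not read as a difference in neutrophil expression.

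Cxcl2 was the neutrophil chemokine of the set and was lower in APP/PS1. Its level in neutrophils was 4233 CPM (4200 to 4265) in WT against 2930 CPM (2905 to 2955) in APP/PS1, a log2 ratio of -0.53 (-0.55 to -0.51). A Cxcl2 UMI was found in 83.1% of the WT neutrophils against 72.7% in APP/PS1, and in 72.5% and 59.8% after thinning. The median cell held 6 UMIs in WT and 3 in APP/PS1, and cells with at least 10 UMIs were 39.6% and 28.3% of neutrophils. Neutrophils held 61.5% of the WT and 59.3% of the APP/PS1 Cxcl2 UMIs. Cluster 1 had 3965 and 2566 CPM (-0.63, -0.65 to -0.60). Neutrophils with secondary granule genes had far less, 1090 and 526 CPM (-1.05). The share of neutrophils at 10 or more UMIs and the share with any UMI were thus both lower in APP/PS1.

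Outside the neutrophils and cluster 1, Cxcl2 was far lower. Per 1000 S100a9 UMIs it was at 45.2 in WT against 37.3 in APP/PS1 neutrophils, 41.0 and 39.1 in NK cells, 55.2 and 56.0 in B cells, 55.2 and 58.6 in classical and 51.4 and 61.9 in nonclassical monocytes. The number was 30.2 and 28.8 in CD8 T cells, 87.5 and 82.6 in basophils and 31.9 and 96.9 in gamma-delta T cells. Platelets had 63.2 and 18.6, plasma cells 17.6 and 13.9, and neutrophils with secondary granule genes 6.51 and 3.05. The Cxcl2 level was 328 and 261 CPM in classical (-0.33) and 103 and 104 CPM in nonclassical monocytes (0.02). The latter was below the B cell level of 371 and 189 CPM. B cells also held more S100a9, at 6710 and 3367 CPM against 2000 and 1684 CPM in nonclassical monocytes. The part of free RNA in the Cxcl2 of nonclassical monocytes was not tested.

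When the 17160 cells of the neutrophil clusters were clustered again, without the chemokine genes among the features, Cxcl2 was lower in APP/PS1 in all 8 clusters, with log2 ratios from -0.78 to -0.40 and no interval that reached 0. The largest cluster, high in Retnlg and the stefin genes, was at 4042 CPM in WT against 3060 CPM in APP/PS1. The cluster with Camp, Ngp and Ltf, genes of secondary granules, was lowest at 963 and 561 CPM. Ccl3 differed more among clusters than between genotypes. It was highest in the cluster with Clec4n, Dusp2 and Icam1, at 464 CPM in WT against 500 CPM in APP/PS1 (0.11), and lowest in the Camp cluster, at 20.8 and 37.7 CPM. Its ratio was wider in the Retnlg cluster, with 192 and 270 CPM (0.49, 0.40 to 0.59), and in the cluster with platelet genes, with 209 and 298 CPM (0.51, 0.39 to 0.63). Ccl4 was also high in the Clec4n cluster, at 449 and 435 CPM. Between the Retnlg and Clec4n clusters Ccl6 had the opposite order, with 3306 and 3784 CPM in the former and 2458 and 2592 CPM in the latter. Like Ccl3, it was lowest in the Camp cluster, at 1247 and 966 CPM.

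**Figure D4:**
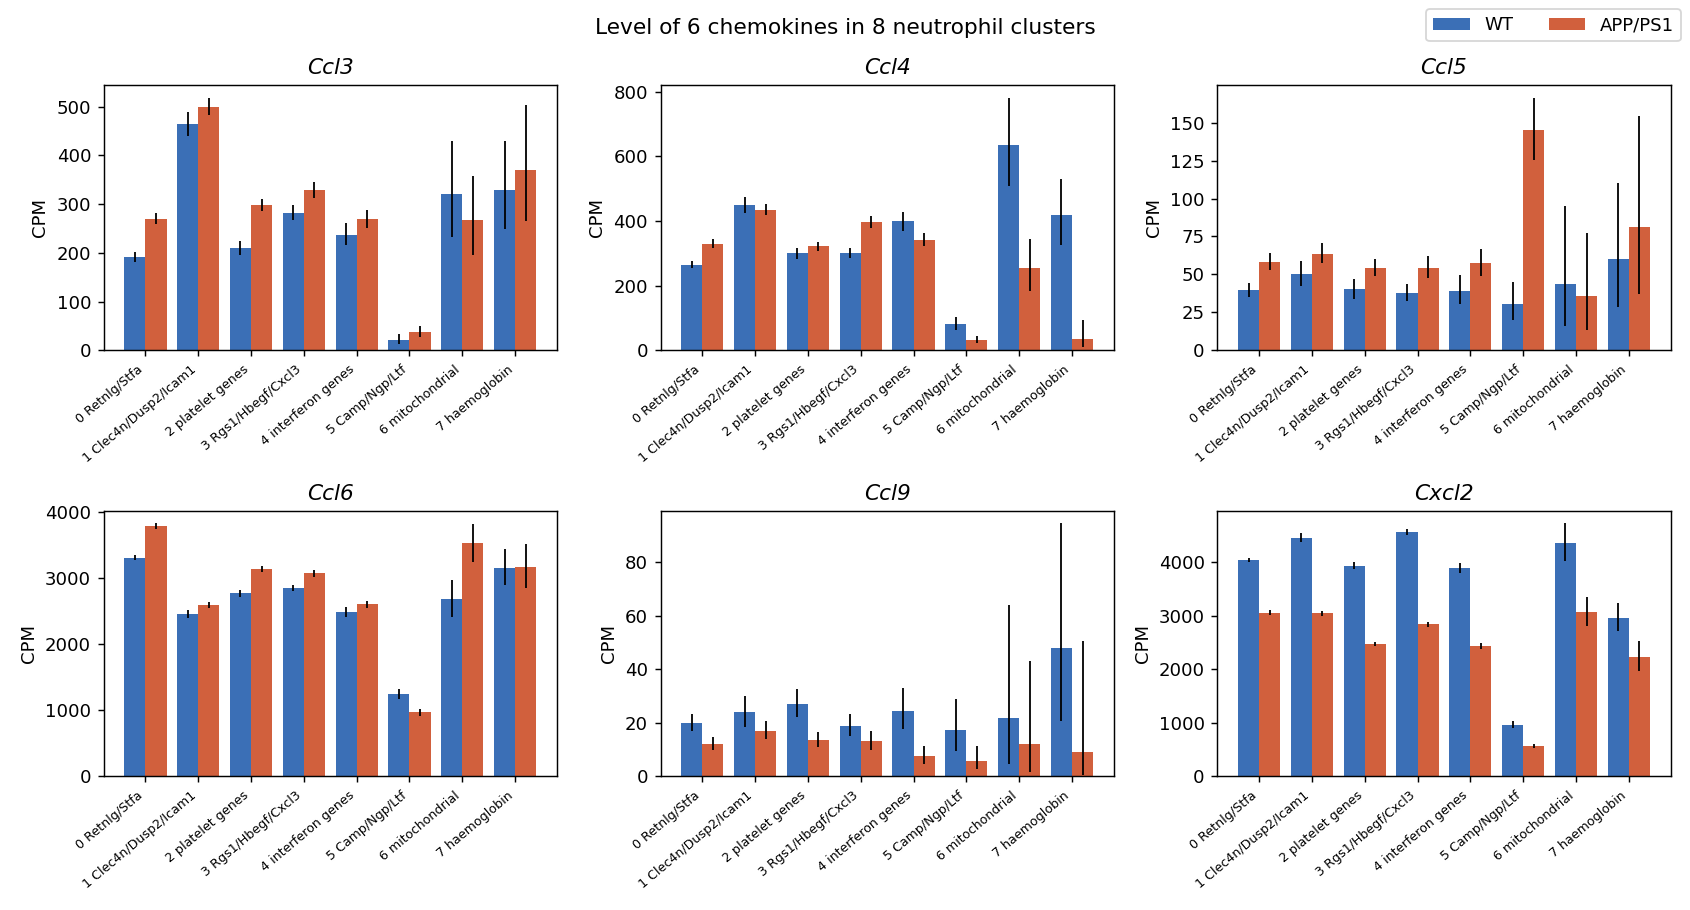
Levels in CPM of the 6 chemokines in 8 neutrophil clusters named by their leading genes, with WT and APP/PS1 as paired bars and lines for the 95% counting interval. Cxcl2 is lower in APP/PS1 in each cluster, and Ccl3 is highest in the Clec4n/Dusp2/Icam1 cluster at 464 and 500 CPM.

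Ccl3 and Ccl4 were found in the same neutrophils more often than their shares alone would give. With each cell thinned to 1000 UMIs, 233 WT neutrophils held both where 117.3 would be expected from the product of the shares, 1.99 times as many (1.74 to 2.26). In APP/PS1 it was 286 where 133.3 would be expected, 2.15 times as many (1.90 to 2.41). A Ccl4 UMI was present in 26.3% of WT neutrophils with Ccl3 and in 10.8% of those without, and in 26.1% and 9.26% in APP/PS1. Ccl3 and Cxcl2 met only 1.08 and 1.09 times as often as the product of their shares. For the other pairs the ratio lay between 0.868 and 1.42, except Ccl5 with Ccl9 in APP/PS1, for which 0 cells were seen and 3.85 expected. The 1.42 was Ccl4 with Ccl5 in APP/PS1, 70 cells where 49.4 would be expected, and the same pair was at 0.952 in WT. The cells of a library share their free RNA, and no test was made.

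**Figure D5:**
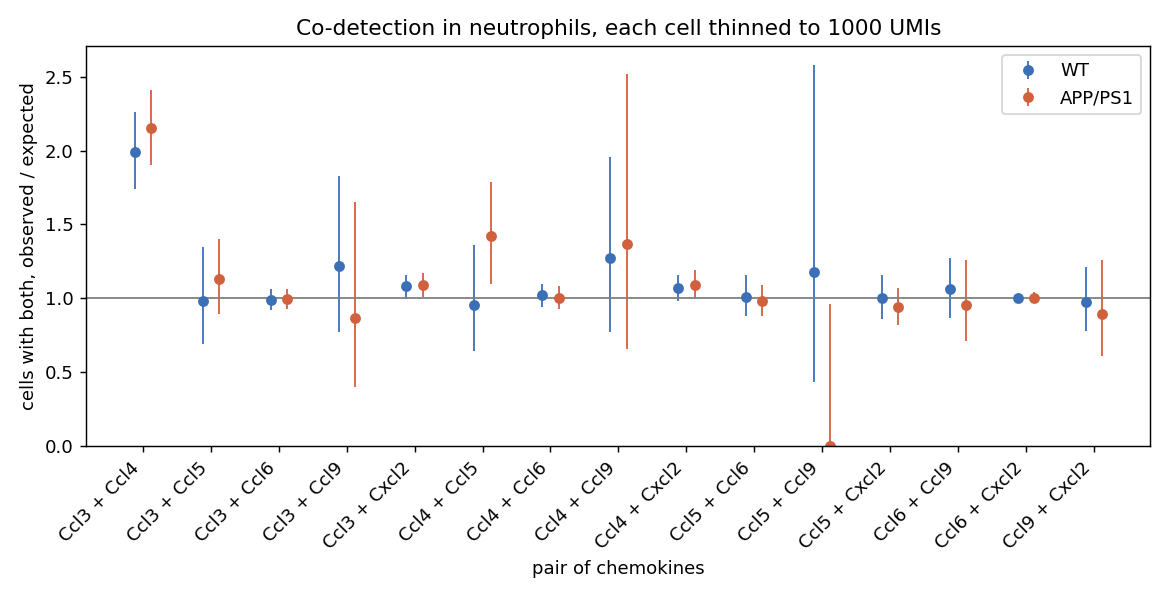
Observed over expected number of neutrophils holding both members of each chemokine pair, after thinning to 1000 UMIs, for WT and APP/PS1, with bars for the 95% counting interval of the observed number and a line at 1. The pair Ccl3 and Ccl4 stands at 1.99 and 2.15, above the other pairs. Pairs with Cxcl2 or Ccl6 could not reach these values, because most cells hold these genes.

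Neutrophils with both Ccl3 and Ccl4 as counted (516 in WT against 598 in APP/PS1) were set beside those with neither (3464 and 3914). Cxcl2 was at 5180 CPM with both and 3933 CPM with neither in WT, and at 3774 and 2703 CPM in APP/PS1. Ccrl2 was at 373 and 287 CPM in WT and at 804 and 562 CPM in APP/PS1. Ccl6 was alike, at 2938 and 2921 CPM in WT and 3093 and 3164 CPM in APP/PS1. Of 6296 genes, 49 were higher by over 0.5 in the cells with both in each library. They included Rgs1, a regulator of G protein signalling, at 126 and 74.7 CPM in WT and at 68.1 and 38.1 CPM in APP/PS1.

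The receptors of these ligands were present on the neutrophils. Cxcr2, the receptor of Cxcl2, was at 1442 CPM in WT against 1509 CPM in APP/PS1 (0.07), and Ccr1, the receptor of Ccl3, Ccl5, Ccl6 and Ccl9, at 1308 and 1302 CPM (-0.01). Of 8 receptor genes, 5 were tested in neutrophils, and 2 were higher by over 0.5 and 0 lower. The 2 were Ccrl2, an atypical receptor that binds chemerin, at 308 and 613 CPM (0.995, 0.95 to 1.04), and Ccr3 at 2.84 and 6.46 CPM (1.19, 0.68 to 1.72). Ccrl2 was higher by a similar ratio in classical monocytes, 68.0 and 132 CPM (0.95), in nonclassical monocytes, 144 and 275 CPM (0.94), and in NK cells, 44.95 and 85.7 CPM (0.93). In basophils its log2 ratio was -0.17.

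Of 31 other chemokine ligands, 12 had no UMI in any named type. In neutrophils 6 were tested, with 1 higher and 1 lower by over 0.5. The higher was Cxcl10, an interferon-induced ligand of Cxcr3, at 3.16 CPM in WT against 17.1 CPM in APP/PS1 (2.43, 1.995 to 2.90). The lower was Cxcl3, a close relative of Cxcl2 that also acts on Cxcr2, at 23.3 and 9.30 CPM (-1.32, -1.60 to -1.06). In classical monocytes 9 were tested, with 2 higher and 1 lower, among them Cxcl10 at 17.4 and 50.8 CPM (1.55). In nonclassical monocytes 5 were tested, with 2 higher and 0 lower, among them Cxcl16, a membrane-bound ligand, at 4.78 and 10.2 CPM (1.10, 0.55 to 1.65).

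The 3 genes on each side of every member, members aside, were read as neighbours, a number set after the member values were known. Of these 13 genes, 6 were tested in neutrophils, with 0 higher and 2 lower. Wfdc17, which lies past Ccl4 on chromosome 11, was at 2973 CPM in WT against 1851 CPM in APP/PS1 (-0.68, -0.70 to -0.66), and the other was Cxcl3. In nonclassical monocytes, where Ccl3 and Ccl4 were higher, Wfdc17 was at 145 and 86.1 CPM (-0.75, -0.89 to -0.61). Of 3 neighbours tested there 0 were higher and 1 was lower.

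Across 26 points, the 13 named types in each of 2 libraries, the genes most like each member were listed by Pearson correlation of log2(CPM + 1) among 10415 genes. Ccl3 was most like Ccl4 (0.943), then Btbd19 (0.862) and Ier2 (0.844). Ccl5 was most like Gzma (0.944), a cytotoxic granule protease, AW112010 (0.915) and Prf1 (0.903), which encodes perforin. Ccl6 was most like Fos (0.921), Alox5ap (0.918) and Lilrb4a (0.904), and Ccl9 like Gstm1 (0.914). Cxcl2 was most like Ccr1 (0.949), H2-Q10 (0.944) and Grina (0.917). The points share their libraries and the same free RNA, so these values only describe these cells.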

How the data were processed

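Single-cell RNA was measured in 2 libraries, WT and APP/PS1. The authors deposited raw counts, whole UMIs per gene and cell, and the submitters' processing notes name Cell Ranger 5.0.0 and mm10. No deposited cell annotation was used. Totals were 92458623 UMIs in WT and 84870864 in APP/PS1. Per library, cells between the 5th and 95th percentiles of genes and UMIs with at most 10% mitochondrial UMIs were kept. Cells were clustered with Seurat 5.3.0 in R 4.3.3 (2000 variable features without chemokine ligands, 15 components, resolution 0.5), and clusters were named from marker lists by a rule set after the clusters were seen. The neutrophil clusters were clustered again with CCA anchors between libraries (resolution 0.3).

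Scrublet (scanpy 1.11.5, Python 3.11.15) called 1548 WT and 0 APP/PS1 cells at its automatic threshold, so no cell was removed as a doublet except in the alternative that drops the 8% with the highest scores. UMIs were summed per type and library. CPM have exact Poisson intervals, shares Clopper-Pearson intervals and ratios exact conditional intervals, all at 95%. Genes with at least 50 UMIs over both libraries were tested against the 0.5 limit by size alone. In Poisson counts simulated for 8705 neutrophil genes, 95.3% of intervals held the true ratio. The simulation had no variation between cells or mice, so it checks only the computation of the intervals. Alternatives covered filters, doublets, features, resolution, components, edgeR 4.0.16 TMM sizes and cell subsets. The named genes were the members, the fixed ligand and receptor lists, the 3 genes most like each member, neighbouring genes and the genes highest with Ccl3 and Ccl4. Some genes of these lists are not reported here. The members and lists were chosen with earlier results of these data known.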

Additional observations from a re-analysis of the deposited data

Results flagged for a closer look

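Some members had large ratios in opposite directions in different cell types. The difference between the types was not tested, since each genotype is 1 library. For Ccl4, the log2 ratio of APP/PS1 over WT was -1.591 in neutrophils with secondary granule genes (69 and 39 UMIs, the highest cell holding 37 and 14 of them) and -1.258 in B cells (103 and 48 UMIs). It was 0.579 in classical monocytes, 1.337 in nonclassical monocytes, 0.5232 in CD8 T cells and 1.226 in erythroid cells (120 and 144 UMIs). In B cells the richest 1% of cells held 59.2% of the WT and 35.4% of the APP/PS1 Ccl4 UMIs, with at most 28 and 6 UMIs in a cell.

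For Ccl6, the log2 ratio was -0.58 in neutrophils with secondary granule genes and -0.8818 in B cells, and 0.6513 in erythroid cells. S100a9 went the same way in the last 2 types, from 6710 to 3367 CPM in B cells and from 17641 to 22120 CPM in erythroid cells. Ccl6 per 1000 S100a9 UMIs was 40.7 and 44.0 in B cells, 35.3 and 44.2 in erythroid cells, and 31.7 and 40.1 in neutrophils.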

How the results depend on the processing

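No paired analysis was possible because each genotype is 1 library and no replicate numbers pair them. Ratios were recomputed in neutrophils, both monocyte classes and CD8 T cells. There no ratio beyond 0.5 changed sign, while Cxcl2 in CD8 T cells (-0.28 to 0.42) and Cxcl2 (-0.42 to 0.27) and Ccl6 (-0.23 to 0.0050) in nonclassical monocytes did, and so did basophil Ccl9 by its levels without percentile limits. Values below are log2 ratios of APP/PS1 over WT unless given as CPM, and where no cause is named the cause was not tested.

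Without percentile limits, classical Ccl3 and Ccl4 were 1.42 and 0.81, neutrophil Ccl6 0.054 and CD8 T cell Ccl5 0.68. Levels in WT and APP/PS1 basophils were then 8330 and 10860 CPM of Ccl3, 14870 and 19360 of Ccl4, 4105 and 5594 of Ccl6 and 1539 and 1552 of Ccl9, with Ccl5 at 23500 in WT NK and 24630 in APP/PS1 CD8 T cells. Percentiles over both libraries gave 1.17 and 0.99 for Ccl3 and Ccl4 in classical and 1.29 and 0.42 in nonclassical monocytes. All features gave 1.14 and 0.81, 1.21 and 0.38, and 0.75 for CD8 T cell Ccl5. Resolution 0.2 gave 0.80 and 0.19, 1.28 and 0.44, neutrophil Ccl4 0.27, Ccl6 0.14 and Cxcl2 -0.51, and 12990 CPM of Ccl3 and 22760 of Ccl4 in WT basophils, 24490 of Ccl5 in APP/PS1 CD8 T cells and 4158 of Cxcl2 in WT neutrophils. Resolution 1.0 gave 1.12 and 0.77, 1.28 and 0.40, and Cxcl2 -0.51 with 4186 CPM in WT. These 4 settings placed 380 to 541 cells of an unnamed cluster per library among nonclassical monocytes, bringing in most of their WT Ccl4 UMIs (588 of 855 with all features). With 30 components classical Ccl3 and Ccl4 were 1.12 and 0.84 and CD8 T cell Ccl5 0.75.

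With doublets removed, classical Ccl3 and Ccl4 were 1.32 and 0.97 and CD8 T cell Ccl5 0.64. Basophils were at 13120 and 14320 CPM of Ccl3 and 23060 and 25110 of Ccl4, WT NK cells at 30380 and APP/PS1 CD8 T cells at 26660 of Ccl5, and APP/PS1 neutrophils at 2901 of Cxcl2. TMM sizes gave neutrophil Ccl6 0.047, Cxcl2 -0.57 and CD8 T cell Ccl5 0.68, and sizes without the abundant gene classes 0.036, -0.58 and 0.61. Means of per-cell CPM gave neutrophil Ccl3 0.34 and Ccl4 0.11 and CD8 T cell Ccl5 0.56. Neutrophils without platelet or lymphocyte UMIs gave Ccl3 0.30, Ccl4 0.26, Ccl5 0.29 and Cxcl2 -0.49, the one value of Cxcl2 under 0.5 in size. CD8 T cells with no UMI of Lef1 or Ccr7, chosen after seeing the data, gave Ccl5 0.29. As counted, Ccl3 and Ccl4 met 1.67 and 1.72 times as often as the product of their shares gives. Without anchors the Clec4n cluster had 518 and 551 CPM of Ccl3 and 532 and 470 of Ccl4.

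Counting depth limits Ccl9 and Ccl5 in neutrophils and all members in plasma cells and platelets.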

Other observations

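The 2 clusters that no marker list named also held chemokine UMIs. The larger, with 688 WT and 599 APP/PS1 cells, had Cxcl2 at 1873 and 1228 CPM, Ccl6 at 1506 and 1581 CPM and Ccl3 at 129 and 203 CPM. The smaller, with 42 and 29 cells, had Ccl5 at 11208 and 11504 CPM and Ccl4 at 521 and 573 CPM. Among gamma-delta T cells, 89 in WT and 75 in APP/PS1, Cxcl2 was at 152 and 547 CPM, a log2 ratio of 1.84, against a ratio of -0.53 in neutrophils. The gamma-delta T cell ratio rested on 71 and 235 UMIs in 11 and 22 cells, the highest cell holding 22 and 70 of them.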
